A study of Mus musculus with 4 samples.

Results

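The collagens are the fibre-, sheet- and filament-forming proteins of the extracellular matrix. Their 35 genes followed here were taken from a fixed list, through probe sets that the platform annotation pairs with a single gene symbol. All 35 had such a probe set, among 18193 genes that did, and 26 of them lay above the intensity filter. By structure the list holds 10 fibrillar collagens, 6 chains of the basement membrane collagen IV, 7 fibril-associated collagens (FACIT), 3 chains of collagen VI, and 3 short chain collagens. It also holds 3 transmembrane collagens, 2 multiplexins and the anchoring fibril gene Col7a1.

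Whole dorsal skin of male C57B6 mice was measured on 4 arrays, 2 from postnatal day 59 (P59, late telogen) and 2 from postnatal day 54 (P54, middle telogen). Telogen is the resting phase of the hair cycle, and the comparison asks how transcripts differ between its middle and late part. The skin was shaved before RNA was taken, no other treatment is named in the labels, and they call the arrays biological replicates without saying how many animals gave each. The p-values therefore rest on the spread between these samples. The limma fit draws the spread of each gene toward that of all genes tested, with 2 residual and 8.18 prior degrees of freedom. A gene's p-value or interval thus does not measure the spread of its own values alone.

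Each collagen molecule is built from chains that wind into a triple helix. Fibrillar collagens of fibroblasts give the dermis its tensile strength, and FACIT collagens sit on the surface of those fibrils. Collagen IV makes the sheet under the epidermis, around vessels and around muscle fibres, and collagen VII ties the epidermal sheet to the dermis.

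P59 replicate 2 stood apart from the other arrays before any collagen was considered. Its score on the first principal component was 35.4, against -4.31 in P59 replicate 1 and between -22.5 and -8.57 in the P54 arrays. The array's control sets for the 3′ and 5′ ends of Gapdh differed by 4.57 (log2) in P59 replicate 2, by 0.23 in P59 replicate 1, and by 0.34 and 0.20 at P54. For Actb the same gap was 1.64 in P59 replicate 2, 0.18 in P59 replicate 1, and 0.45 and 0.52 at P54. The control sets of Pcx and Tfrc did not set that array apart in the same way. Their gaps there were 3.50 and 1.04, against 3.24 and 1.98 in P59 replicate 1 and, at P54, 2.51 to 3.34 for Pcx and 1.74 to 1.82 for Tfrc. The 5′ end thus read lower relative to the 3′ end on P59 replicate 2 for Gapdh and Actb. The Tfrc sets lay below the intensity filter on every array, the 3′ set at 5.15 to 6.42 and the 5′ set at 3.79 to 4.44. The 5′ set of Pcx was also dim, at 5.84 to 7.04. At these levels the gaps of Pcx and Tfrc cannot decide whether the 5′ end read lower on P59 replicate 2. Where a named gene's difference moves by over 1.5 times or turns sign without that array, it is given both ways, except for collagens that differed by less than 0.2. Its part in the results was not tested.

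Cell type markers were read on the same arrays. For 6 of the 8 keratinocyte markers both P59 arrays lay below both P54 arrays, where 14.8% of all genes tested did so. All 8 lay above the filter and all 8 were lower on average at P59, with a median log2 difference of -0.24. Their mean log2 intensity was 12.36 and 12.22 at P59, against 12.61 and 12.63 at P54. Of 10 fibroblast markers 8 were higher and 2 lower, with a median of 0.22 and means of 10.79 and 10.86 at P59, against 10.69 and 10.49 at P54. Of 8 cartilage markers 7 lay below the filter, including Acan and Matn1, and the exception was Sox9. All 8 markers of the growing hair follicle were higher at P59, with means of 10.01 and 7.76 there, against 6.67 and 5.31 at P54.

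No collagen gene passed the adjusted threshold between P59 and P54 in limma's fit over all genes. This was 0 of 26 tested members, where 0.0183% of the 10916 genes tested passed. At an unadjusted p under 0.05 there was 1 member, Col8a1, against 6.49% of all genes tested. Col8a1 was also the 1 member that was at least 1.5-fold higher at that limit, where 3.03% of all genes were, and 0 members were at least 1.5-fold lower, where 2.53% were. Among the tested members 16 were higher and 10 lower. The median log2 difference of all 35 members was 0.08, and 0.09 for the 26 tested, beside 0.07 for all genes with a probe set and 0.05 for all genes tested. Taken over the whole list, the collagens lay close to the centre of all genes. In whole skin, fewer cells of a type and less RNA per cell cannot be told apart.

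The 2 P59 arrays lay above both P54 arrays for 9 tested members (34.6%), where 18.9% of all genes tested did so. They lay below both for 4 tested members (15.4%), where 14.8% of all genes did so. The 9 were Col2a1, Col5a1, Col5a2, Col4a1, Col4a2, Col12a1, Col6a1, Col6a3 and Col8a1, and the 4 were Col3a1, Col4a6, Col7a1 and Col23a1. An exact permutation test of 2 arrays against 2 cannot give a two-sided p below 0.333, so no single gene was tested that way.

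**Figure D1:**
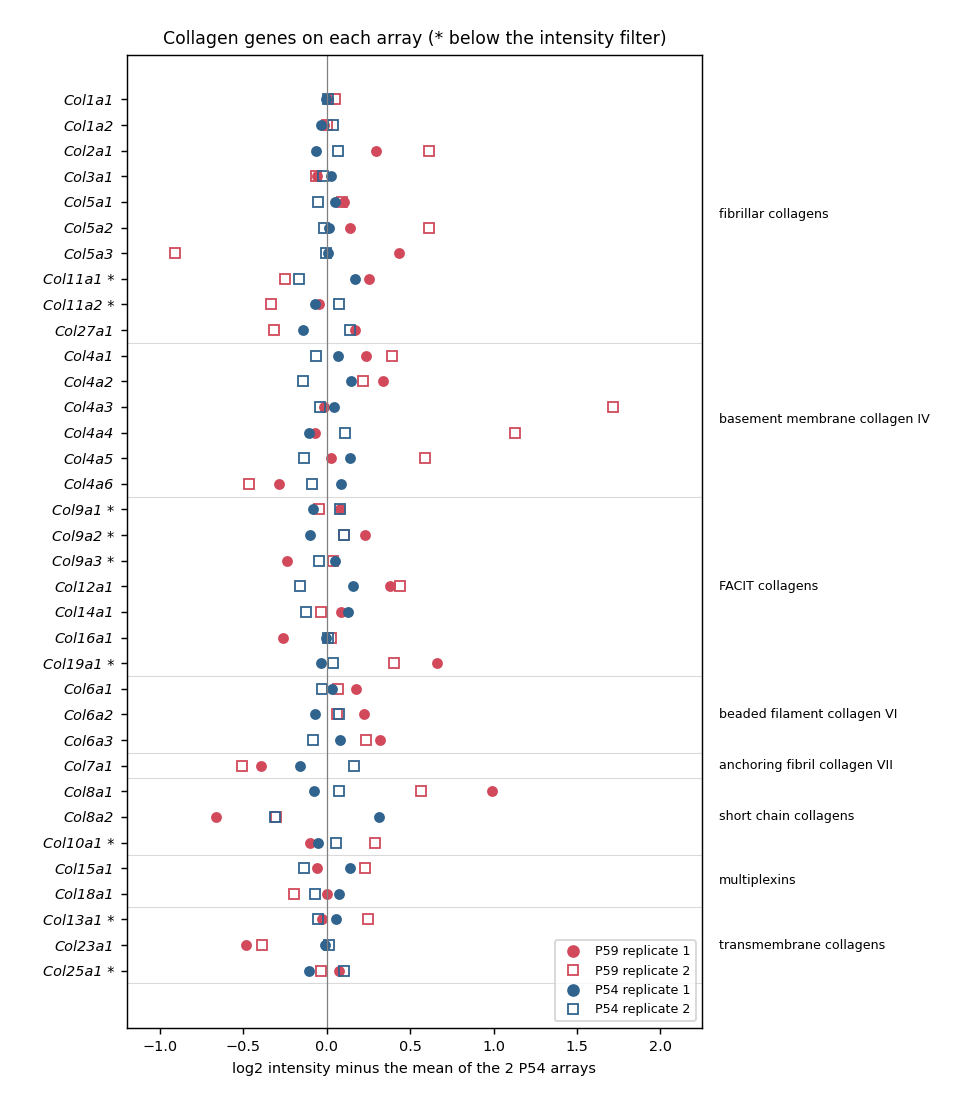
Log2 intensity of each of the 35 collagen genes on each array, minus the mean of the P54 arrays (x axis), by structural class (rows); circles are replicate 1 and open squares replicate 2, and genes with a star lay below the intensity filter. The farthest points to the right are Col4a3 and Col4a4 in P59 replicate 2 (1.71 and 1.13) and the farthest to the left is Col5a3 on the same array (-0.91).

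The fibrillar collagens of the dermis read at the top of the arrays' range. Col1a1 and Col1a2 encode the chains of collagen I, the main fibre of skin, and Col3a1 that of collagen III, which lies in the same fibrils. Their probe sets held ranks between 1 and 4 among 45101 on every array. Col1a1 was at 14.47 and 14.52 at P59, against 14.46 and 14.48 at P54 (log2 difference 0.03, 95% interval -0.46 to 0.52). Col1a2 was at 14.50 and 14.52 at P59, against 14.48 and 14.55 at P54 (difference -0.01, interval -0.50 to 0.49). Col3a1 was at 14.47 and 14.46 at P59, against 14.55 and 14.50 at P54 (difference -0.06, interval -0.55 to 0.43).

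The 3 genes thus differed little between the groups on sets at the top of the scale, where the highest reading of any set was 14.50 to 14.55. Other sets of Col1a2 read 14.40 and 14.41 at P59, against 14.39 and 14.34 at P54, and 7.22 and 7.39, against 6.93 and 7.21. Both P59 arrays were higher on each, and with the mean of its sets Col1a2 differed by 0.09. Sets of Col3a1 and Col1a1 lower on the scale were less even. The second set of Col3a1 was at 13.09 and 13.48 at P59, against 13.20 and 12.99 at P54. The second set of Col1a1 was at 9.66 and 12.51 at P59, against 8.85 and 9.54 at P54, so it was 1.89 higher on average, and P59 replicate 2 was far above the other arrays. With the mean of its sets Col1a1 differed by 0.96. Without P59 replicate 2 its first set differed by 0.0067, while on its second set P59 replicate 1 still lay above both P54 arrays.

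Collagen V regulates how collagen I fibrils start and how thick they grow. Col5a2 was at 12.85 and 13.32 at P59, against 12.73 and 12.70 at P54, and both P59 arrays were higher (difference 0.37, interval -0.17 to 0.92, limma's adjusted p = 0.893). A second set of Col5a2 gave 0.38. Without P59 replicate 2 the difference was 0.14. Col5a1 was at 11.38 and 11.37 at P59, against 11.33 and 11.23 at P54 (difference 0.10). A further set read 10.43 and 9.12 at P59, against 10.32 and 10.03 at P54, so P59 replicate 2 was the lowest there and the highest on the second set, at 11.52.

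Col5a3, a chain of rarer collagen V molecules, was at 9.28 and 7.94 at P59, against 8.85 and 8.84 at P54. The P59 arrays lay on either side of P54, with -0.24 on average and 0.43 without P59 replicate 2. Col5a2 lies next to Col3a1 in the RefSeq gene order.

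The other fibrillar genes read low. Col2a1, the collagen of cartilage, was at 6.97 and 7.29 at P59, against 6.61 and 6.75 at P54, beside a filter of 6.58 (difference 0.45, or 0.29 without P59 replicate 2, limma's adjusted p = 0.840). Both P59 arrays were higher, and 7 of the 8 cartilage markers lay below the filter. Col27a1, a fibrillar collagen of cartilage and other tissues, was at 7.81 and 7.33 at P59, against 7.51 and 7.79 at P54, so the groups overlapped. Col11a1 and Col11a2, minor chains of cartilage fibrils, lay below the filter, with readings between 4.25 and 5.31. The 10 fibrillar genes had a median difference of -0.0027, and 3 of the 8 tested had P59 arrays above both P54 arrays, where 18.9% of all genes did. For 1, Col3a1, they lay below both, where 14.8% of all genes did.

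Collagen IV divided by chain. Col4a1 and Col4a2 encode the chains of the network found in nearly every basement membrane. Col4a3, Col4a4 and Col4a5 build a network best known from kidney, lung and eye, and Col4a5 with Col4a6 builds one of the epidermal and smooth muscle basement membranes. The genes lie in head-to-head pairs on the genome.

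Col4a1 was at 11.50 and 11.65 at P59, against 11.33 and 11.20 at P54 (difference 0.31, interval -0.19 to 0.81, limma's adjusted p = 0.917). Col4a2 was at 10.48 and 10.37 at P59, against 10.29 and 10.01 at P54 (difference 0.28, interval -0.24 to 0.79, limma's adjusted p = 0.934). Both were higher in each P59 array than in either P54 array. A second set of Col4a1 was at 10.76 and 10.44 at P59, against 10.56 and 10.31 at P54, so there the groups overlapped (difference 0.16). The log2 ratio of Col4a1 to Col4a2 shifted by -0.10 and 0.17 in P59 replicates 1 and 2 against the P54 mean, while the P54 arrays differed by 0.15. Without P59 replicate 2 the differences were 0.23 and 0.33.

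The annotated starts of these 2 genes overlap, which is why that stretch is shown. It is from RefSeq on GRCm38.p6, chr8:11312801-11312830, plus strand, 5′ to 3′, and the capitals mark the 22 bases that both transcripts hold.
Col4a1 and Col4a2 starts: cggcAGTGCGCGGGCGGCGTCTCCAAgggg

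The Col4a6 and Col4a5 pair went apart instead. Col4a6 was at 8.25 and 8.06 at P59, against 8.62 and 8.45 at P54, lower in both P59 arrays (difference -0.38, interval -0.88 to 0.13, limma's adjusted p = 0.883). A second set of Col4a6 gave -0.21, with groups that overlapped. Col4a5 was at 8.99 and 9.56 at P59, against 9.11 and 8.83 at P54 (difference 0.31). The Col4a5 groups overlapped on this set, and without P59 replicate 2 the difference was 0.02, while that of Col4a6 was -0.28. A second set of Col4a5 was at 7.94 and 8.30 at P59, against 7.82 and 7.72 at P54. There both P59 arrays were higher (difference 0.35). The log2 ratio of Col4a5 to Col4a6 was higher by 0.31 and 1.06 in P59 replicates 1 and 2 than the P54 mean, and the P54 arrays differed by 0.11. Of the 8 keratinocyte markers 6 also lay below both P54 arrays on both P59 arrays, where 14.8% of all genes tested did so. The part of these markers in this was not tested.

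The annotated starts of Col4a6 and Col4a5 lie 1342 bases apart, while those of Col4a1 and Col4a2 overlap. The upstream windows of Col4a6 and Col4a5 are shown to set this pair beside the one with overlapping starts. They are the 250 bases before each start, RefSeq on GRCm38.p6, 5′ to 3′ on the strand of the gene, and the capitals mark matches to the GC box (GGGCGG) or the CCAAT box on either strand. The Col4a6 window is chrX:141474077-141474326, minus strand, and the Col4a5 window is chrX:141475169-141475418, plus strand.
Col4a6: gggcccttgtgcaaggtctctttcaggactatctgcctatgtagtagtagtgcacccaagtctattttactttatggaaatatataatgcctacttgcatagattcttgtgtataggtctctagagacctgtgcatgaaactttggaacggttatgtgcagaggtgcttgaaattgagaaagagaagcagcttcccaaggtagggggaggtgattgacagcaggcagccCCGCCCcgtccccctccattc
Col4a5: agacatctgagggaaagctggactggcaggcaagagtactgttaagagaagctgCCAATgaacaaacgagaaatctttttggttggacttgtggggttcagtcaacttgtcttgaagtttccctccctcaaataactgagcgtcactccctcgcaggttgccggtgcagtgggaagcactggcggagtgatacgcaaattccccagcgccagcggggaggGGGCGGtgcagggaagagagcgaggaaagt

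Of the 35 genes 28 had a window of 250 bases before to 50 after a start. A GC box stood in a window of 19 of these genes, and 35.7% of all 32851 windows hold 1. A CCAAT box stood in a window of 11 genes, against 37.4% of all windows. A TATA box (TATAAA) stood in a window of 4 genes, Col3a1, Col10a1, Col11a2 and Col13a1, against 13.6% of all windows. Genes with several windows were counted once, with a match in any of them, while the percentages are of single windows. The collagen counts and the percentages are thus not in the same unit. Matches to different motifs can overlap. A match describes the letters in the window only.

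Col4a3 and Col4a4, also neighbours, were high on 1 array. Col4a3 was at 6.66 and 8.39 at P59, against 6.71 and 6.63 at P54, and Col4a4 was at 8.07 and 9.28 at P59, against 8.04 and 8.26 at P54. Both P59 replicate 1 values lay with P54, and both P59 replicate 2 values lay above every other array. Without P59 replicate 1 the differences were 1.71 and 1.13, and without P59 replicate 2 they were -0.02 and -0.07. A further set of Col4a4 read 7.30 and 8.23 at P59, against 7.32 and 7.72 at P54. A second, dimmer set of Col4a3 read 5.91 and 7.49 at P59, against 5.94 and 6.15 at P54. Both genes were thus read high in P59 replicate 2 by more than 1 probe set, on the array with the wide gap between 3′ and 5′ control sets. Another set of Col4a4, below the filter, was lowest there, at 5.97. The median of the 6 collagen IV genes was 0.31, and 0.0031 without P59 replicate 2.

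**Figure D2:**
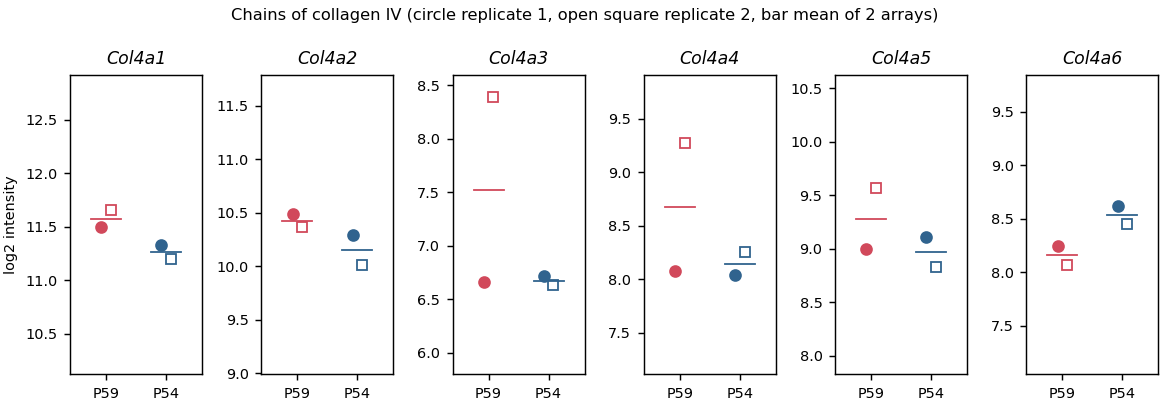
Log2 intensity (y axis) of the 6 collagen IV chains on the P59 and P54 arrays, each panel spanning the same range of log2 units; circles are replicate 1, open squares replicate 2, and bars the mean of 2 arrays. Col4a1 and Col4a2 are higher on both P59 arrays, Col4a6 is lower on both, and Col4a3 and Col4a4 are high in P59 replicate 2 alone.

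Col7a1 encodes the anchoring fibrils that keratinocytes and fibroblasts lay down below the epidermis. It was at 8.96 and 8.85 at P59, against 9.20 and 9.52 at P54, and both P59 arrays were lower (0.73-fold, difference -0.45, interval -0.97 to 0.07, limma's adjusted p = 0.843). Without P59 replicate 2 the difference was -0.39. Col23a1, a transmembrane collagen known from epidermis, was at 7.54 and 7.64 at P59, against 8.01 and 8.04 at P54, with close replicates in both groups (difference -0.43, interval -0.93 to 0.06, limma's adjusted p = 0.835). A second Col23a1 set was at 6.43 and 6.45 at P59, against 6.64 and 6.88 at P54. The dimmest Col23a1 set, below the filter, was at 5.30 and 4.43 at P59, against 5.68 and 6.75 at P54 (difference -1.35). The Col23a1 sets above the filter differed by less, -0.43 and -0.33. The mean of all 3 sets differed by -0.70. With such means Col23a1 was the 1 collagen gene at an unadjusted p under 0.05 and 1.5-fold, in place of Col8a1.

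Lower readings of Col7a1, Col23a1 and Col4a6 thus stood in both P59 arrays, as did those of the fibrillar Col3a1. These 4 are 15.4% of the 26 tested members, close to the 14.8% of all genes tested that were below in both. The part of the keratinocyte markers was not tested. The remaining transmembrane collagens lay below the filter, Col13a1 between 5.74 and 6.04 and Col25a1 between 6.37 and 6.58, with groups that overlapped.

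Collagen VI forms beaded filaments around fibroblasts, fat cells and muscle fibres. Col6a3 was at 12.40 and 12.31 at P59, against 12.16 and 11.99 at P54 (difference 0.28, interval -0.22 to 0.78). Col6a1 was at 12.05 and 11.94 at P59, against 11.91 and 11.85 at P54 (difference 0.12). Col6a2, the neighbour of Col6a1, was at 12.32 and 12.16 at P59, against 12.02 and 12.17 at P54 (difference 0.14). All 3 chains were higher on average, where 58.4% of all genes tested were. The groups overlapped for Col6a2 alone, and 18.9% of all genes tested had both P59 arrays above both P54 arrays. The log2 ratio of Col6a1 to Col6a2 shifted by -0.05 and 0.0043, less than the 0.20 between the P54 arrays. Limma's adjusted p lay between 0.934 and 0.971.

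The short chain collagens form hexagonal lattices. Col8a1, made by vessels and other tissues, was at 8.32 and 7.89 at P59, against 7.25 and 7.40 at P54, with both P59 arrays clear of P54. It was 1.72-fold higher (log2 difference 0.78, interval 0.24 to 1.32, unadjusted p = 0.00918, limma's adjusted p = 0.511). A second set of Col8a1 was at 7.25 and 6.98 at P59, against 6.56 and 6.99 at P54. With the mean of its sets the difference was 0.45 (limma's adjusted p = 0.777), and without P54 replicate 1 it was 0.70. In both cases the unadjusted p was above 0.05. Without P59 replicate 2 the log2 difference of Col8a1 was 0.99.

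Its partner chain Col8a2 was at 7.46 and 7.82 at P59, against 8.43 and 7.81 at P54 (difference -0.48, interval -1.09 to 0.12). P54 replicate 1 was the highest and the other arrays lay closer together, and without it the difference was -0.17. The log2 ratio of Col8a1 to Col8a2 was higher by 1.65 and 0.87 in P59 replicates 1 and 2, with 0.77 between the P54 arrays. Of 8 markers of endothelium and pericytes 6 were lower and 2 higher, with a median of -0.20. Col10a1, the collagen of growth plate cartilage, lay between 4.58 and 4.97, below the filter.

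FACIT collagens bridge fibrils and other matrix. Col12a1, found in skin, fascia and tendon, was at 8.60 and 8.65 at P59, against 8.37 and 8.06 at P54, higher in both P59 arrays (difference 0.41, interval -0.11 to 0.93, limma's adjusted p = 0.870). A second Col12a1 set was at 7.93 and 7.30 at P59, against 7.72 and 7.79 at P54, and the mean of the sets differed by 0.14. Of 7 tendon and fascia markers 3 lay above the filter, 2 higher and 1 lower at P59. Col14a1, a fibril-surface collagen of the dermis, was at 10.12 and 10.00 at P59, against 10.17 and 9.91 at P54 (difference 0.02, interval -0.49 to 0.53). Col16a1, which lies near fibrils and microfibrils, was at 9.89 and 10.17 at P59, against 10.14 and 10.15 at P54.

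Col19a1, a minor collagen of basement membrane zones, lay below the filter, and each of its sets was higher at P59. It was at 5.18 and 4.92 at P59, against 4.48 and 4.55 at P54, with both P59 arrays higher (difference 0.53). Its other sets differed by 0.39 and 0.61. In the fit without the filter, limma's adjusted p was 0.719 for Col19a1, with an unadjusted p under 0.05. Its neighbour Col9a1, a cartilage collagen, differed by 0.02, and the 3 collagen IX genes read between 4.07 and 6.17. The 7 FACIT genes had a median difference of 0.02, and 3 of them lay above the filter.

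The multiplexins carry sugar chains and sit in basement membrane zones. Col15a1 was at 9.74 and 10.02 at P59, against 9.93 and 9.66 at P54 (difference 0.08). Col18a1, the parent of endostatin, was at 9.37 and 9.17 at P59, against 9.44 and 9.30 at P54 (difference -0.10). The groups overlapped for both. A second set of Col18a1 was at 9.16 and 8.15 at P59, against 9.08 and 9.10 at P54.

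Sets of 1 gene departed from each other most in P59 replicate 2. For 16 collagen genes with 2 or more sets above the filter, each array was set against the mean of the other 3, and the range over the sets of a gene was taken. The median range was 0.40 in P59 replicate 2 and 0.16 in P59 replicate 1, against 0.13 and 0.19 in P54 replicates 1 and 2. Over all 4200 genes with several such sets it was 0.39 in P59 replicate 2 and 0.27 in P59 replicate 1, against 0.20 and 0.29 in P54 replicates 1 and 2. The widest was Col1a1 in P59 replicate 2, at 3.11, followed on that array by Col5a1 at 1.56, Col12a1 at 0.82 and Col18a1 at 0.76. Col1a1 also had the widest range in P54 replicate 1, at 1.69. Genes whose sets kept together in P59 replicate 2 included Col23a1 (0.02), Col14a1 (0.04), Col6a2 (0.07) and Col4a5 (0.11).

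**Figure D3:**
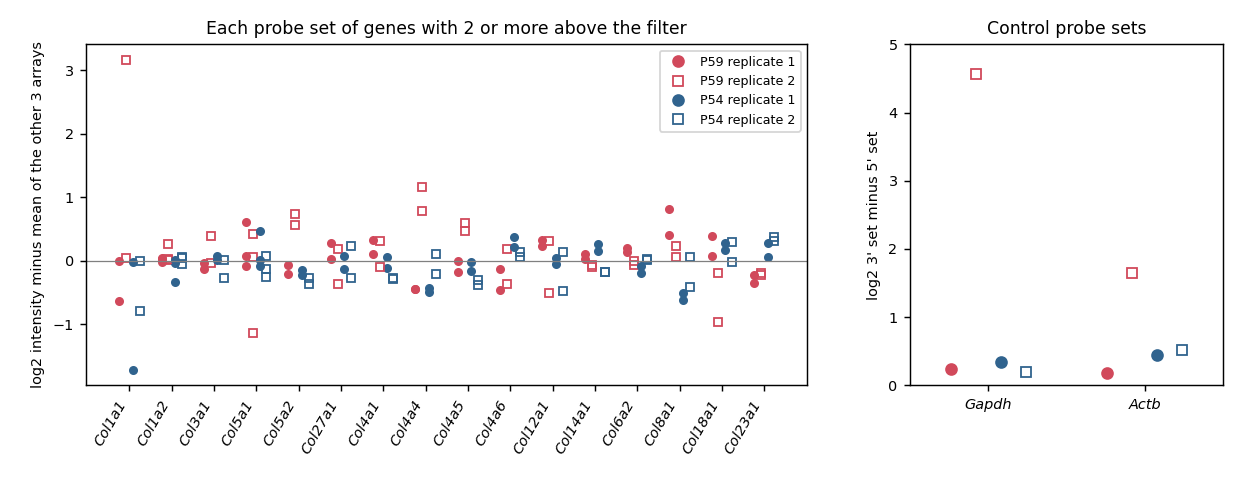
Left, log2 intensity of each probe set minus the mean of the other 3 arrays (y axis) for the 16 collagen genes with several sets above the filter; right, log2 intensity of the 3′ control set minus that of the 5′ set for Gapdh and Actb. Circles are replicate 1 and open squares replicate 2 of each age. P59 replicate 2 has the highest point of the left panel, for Col1a1, and the widest control gaps, 4.57 and 1.64.

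Genes that act on collagen were read from lists set by their roles. Prolyl and lysyl hydroxylases, chaperones and export factors stabilise the helix inside the cell. Of 17 tested genes of this list 9 were higher and 8 lower (median 0.02), with 0 past limma's adjusted threshold and 1 at an unadjusted p under 0.05, where 6.49% of all genes were. That gene was the prolyl 3-hydroxylase P3h2, which acts mainly on basement membrane collagens, at 8.35 and 8.68 at P59, against 9.11 and 9.04 at P54 (difference -0.56, adjusted p = 0.743). P3h3 differed by 0.56, the channel gene Tmem38b by 0.48, and P4hb, a subunit of the prolyl 4-hydroxylase, by -0.47. Leaving out P59 replicate 2, these were 0.27 for P3h3, 0.81 for Tmem38b and 0.07 for P4hb, so P4hb was low on that array alone.

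Processing and crosslinking enzymes act outside the cell, and all 8 tested genes of that list were higher at P59 (median 0.32), with 0 past limma's adjusted threshold and 2 at an unadjusted p under 0.05, where 6.49% of all genes were. Lox, which crosslinks collagen and elastin, was at 11.62 and 12.48 at P59, against 11.10 and 10.97 at P54 (2.02-fold, difference 1.02, adjusted p = 0.478). Lox differed by 0.59 without P59 replicate 2. Tgm2, a transglutaminase that crosslinks matrix proteins, differed by 0.63. Pcolce2, an enhancer of procollagen cleavage, differed by 0.46 (0.15 without P59 replicate 2) and the procollagen protease gene Bmp1 by 0.31. Among all genes tested 58.4% were higher, 8 of 10 fibroblast markers were higher (median 0.22), and 7 of 8 macrophage markers were higher (median 0.38). The part of either in this was not tested.

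Of 5 tested collagen receptors 3 were higher and 2 lower (median 0.17), led by Mrc2, which takes up collagen fragments (0.43), and Ddr2, a tyrosine kinase that binds fibrillar collagen (0.34). Itga1 differed by 0.17 and Ddr1 by -0.10. Without P59 replicate 2 the differences were 0.25 for Mrc2, 0.16 for Ddr2, -0.12 for Itga1 and -0.18 for Ddr1. Of 8 collagen-cleaving proteases and their inhibitors 6 were higher and 2 lower (median 0.14). The gelatinase Mmp2 differed by 0.39, the membrane collagenase Mmp14 by -0.30, cathepsin K (Ctsk) by 0.23 and Timp2 by 0.17. Without that array Mmp14 differed by -0.08 and Ctsk by 0.13. In both lists limma called 0 genes past the adjusted threshold and 0 at an unadjusted p under 0.05.

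Laminins, nidogens and other partners join collagen IV in the basement membrane. Of 13 tested genes 8 were higher and 5 lower (median 0.02), with 0 past limma's adjusted threshold and 3 at an unadjusted p under 0.05, where 6.49% of all genes were. Nid1, which links laminin to collagen IV, was at 11.32 and 11.60 at P59, against 10.85 and 10.54 at P54 (1.70-fold, difference 0.77, adjusted p = 0.514). Lama2, the laminin chain of muscle and nerve, was at 9.90 and 10.46 at P59, against 9.43 and 9.36 at P54 (1.72-fold, difference 0.79, adjusted p = 0.545). Lama2 differed by 0.51 without P59 replicate 2. Lamb3, a laminin chain of the epidermal basement membrane, was at 9.49 and 9.19 at P59, against 9.77 and 10.03 at P54 (difference -0.56, adjusted p = 0.744). Lamc1, common to most laminins, differed by 0.44.

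Regulators of collagen transcription were even, with 8 of 16 higher and 8 lower (median 0.04), 0 past limma's adjusted threshold and 2 at an unadjusted p under 0.05, where 6.49% of all genes were. Ccn2, a matricellular target of TGF-beta signalling, was at 9.62 and 11.50 at P59, against 11.88 and 12.02 at P54 (difference -1.39, or -2.32 without P59 replicate 2, adjusted p = 0.588). The receptor gene Tgfbr2 differed by 0.61. The ligand genes Tgfb1 and Tgfb3 differed by -1.10 and -0.49, and Tgfb1 was at 8.08 and 5.77 at P59, against 7.95 and 8.10 at P54, so P59 replicate 2 alone was low. Without that array Tgfb1 differed by 0.06 and Tgfb3 by -0.07.

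**Figure D4:**
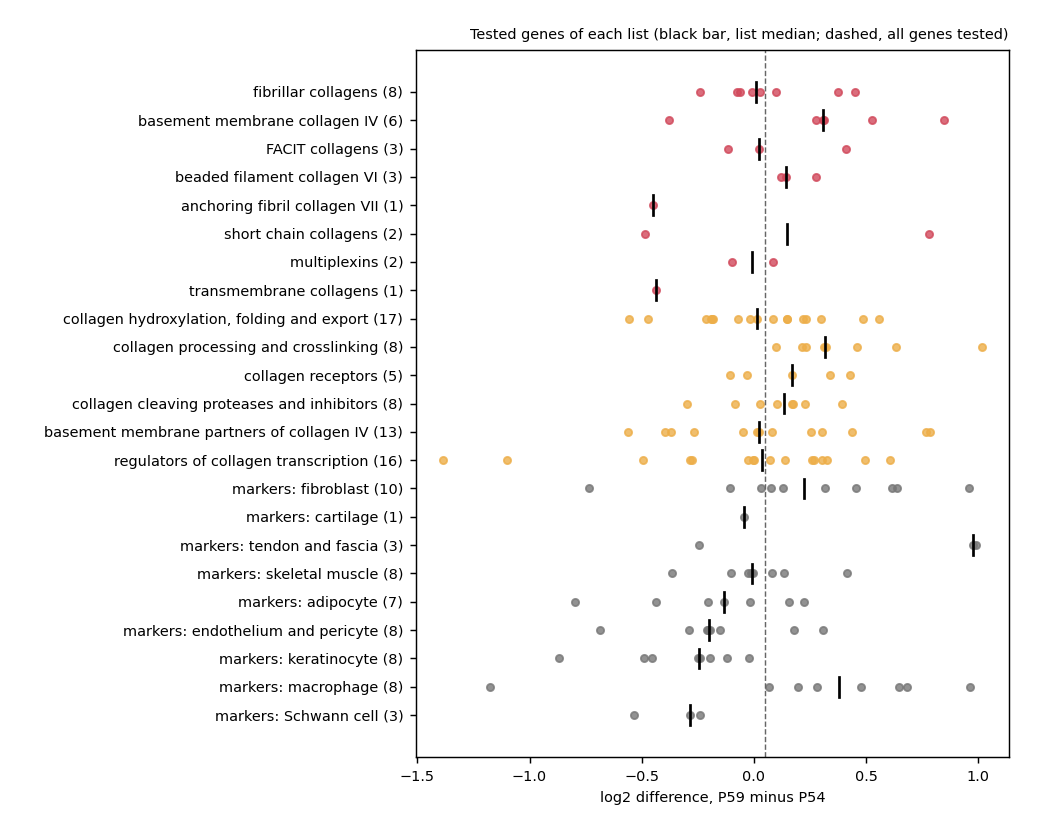
Log2 difference, P59 minus P54 (x axis), of each tested gene of the 8 collagen classes, 6 lists of genes that act with collagen and 9 marker lists (rows, with the number of genes tested); black bars are list medians and the dashed line is the median of all genes tested, 0.05. The markers of the growing hair follicle, with a median of 3.17, are not drawn. All points of the processing and crosslinking list lie above 0 and all points of the keratinocyte markers lie below it.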

How the data were processed

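Per the labels, 4 arrays measured RNA of dorsal skin, and the values the authors deposited are probe set intensities on a linear scale. The submitters' processing notes name RMA and Affymetrix Expression Console, with settings not given in the sources used here. RMA brings arrays to a common distribution, so a shift shared by most genes would not be seen. Values were taken to log2 with no pseudocount. Of 45101 probe sets, 34945 had 1 gene symbol, 932 had several and 9211 were unlisted. Sets with 1 symbol were used, and the brightest on average stood for its gene. Testing was limited to the 10916 of 18193 genes whose mean log2 intensity exceeded 6.58, the 40th percentile. Limma (version 3.58.1, in R 4.3.3) fitted P59 minus P54 by lmFit and eBayes, and p-values were adjusted after Benjamini and Hochberg across those genes (threshold 0.05). The fit had 2 residual and 8.18 prior degrees of freedom, and the number of arrays limits precision. The fit was run on simulated data with independent errors and no array set apart, as a check of the code. That run does not bear on P59 replicate 2 or on differences as small as those of the collagens. All 35 collagen genes are named, with up to 4 genes of smallest p from each other list of genes that act with collagen; marker lists are given as sums and counts. The members and lists were chosen with earlier results of these data known. Alternatives changed the filter, the choice of probe set, the scaling, the offset, the variance trend, the replicate block and the arrays used. Gene order and promoter sequences are from RefSeq (GRCm38.p6), and the files name no genome build.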

Additional observations from a re-analysis of the deposited data

How the results depend on the processing

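The count of 2 genes past limma's adjusted threshold was 0 without the filter, with the filter at the 60th percentile, with the mean of probe sets, with every probe set, with unsuffixed sets, after repeated quantile normalization and with 16 added to the intensity, where 457 to 1122 had an unadjusted p under 0.05. It was 49 with arrays centred on the median and 156 with the replicate block, and 29 to 402 when 1 array was left out. The count of collagen genes past it was 0 to 2 when 1 array was left out, with Col4a3 and Col4a4 past it without P59 replicate 1, a fit that leaves P59 replicate 2 as the lone P59 array and assumes that it varies like the P54 arrays. The count of collagen genes at an unadjusted p under 0.05 and 1.5-fold was 0 with the stricter filter, which removed Col8a1, 2 with centred arrays (Col4a3 and Col8a1), 2 with the replicate block, and 1 to 6 without 1 array (6 without P59 replicate 1; Col4a3 in place of Col8a1 without P54 replicate 1). With the mean of sets it was 1, Col23a1 in place of Col8a1, and that mean takes in a Col23a1 set below the filter. Over all genes tested, 5.56% met both limits in the main fit, 6.66% with centred arrays and 6.92% with the replicate block. Without P59 replicate 1, where P59 replicate 2 is the lone P59 array, the share over all genes tested was also higher than in the main fit. Each fit without 1 array leaves a lone array in 1 group, so its count is not read as a result about the collagens. The median of all collagen genes was 0.13 with centred arrays, where that of all genes with a probe set was 0.11. The fibrillar median was 0.061 with the mean of sets, 0.067 with every set and 0.044 with centred arrays, and -0.030 to 0.12 without 1 array. The collagen IV median was 0.0031 to 0.49 without 1 array, lowest without P59 replicate 2. The FACIT median was 0.065 with the mean of sets, 0.10 with every set, 0.14 with unsuffixed sets, 0.056 after repeated quantile normalization and 0.071 with centred arrays, and 0.035 to 0.10 without 1 array. Apart from the filter, the cause was not tested. The replicate 1 minus replicate 2 differences at P59 and at P54 had a correlation of -0.04 across genes tested. P59 replicate 2 stood apart from the other arrays, so this correlation cannot decide whether replicate numbers pair the samples. Of 35 collagen genes 18 kept their sign in every alternative that gave them a value (12 or 13), and 17 changed it in at least 1. Of those 17, 14 had a difference under 0.2 in size and the other 3 were Col5a3, Col4a3 and Col4a4. Changing the filter, the variance trend or the replicate block leaves a gene's mean difference as it is, so those alternatives could not change a sign. For a gene with a single set, the mean of sets could not change it either.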
